A study of Mus musculus with 30 samples.

Results

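The collagen chain genes of the mouse were followed through 10 groups of cultured and freshly sorted cells. A gene was taken as a collagen chain where its Ensembl identifier maps to a protein-coding gene whose symbol is Col, a type number, a and a chain number. This rule gave 44 of the 50764 gene models in the deposited tables. The rule reads names and no measured value.

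A collagen molecule is a triple helix of 3 chains, alike or different, and each kind of chain has its own gene, so a cell must transcribe a matching set to secrete a given collagen type. Types I, III and V, and in smaller amounts XI, build the fibrils of connective tissue and are the characteristic products of fibroblasts. Type IV forms the sheet of basement membranes. Type VI forms beaded microfilaments, types XII, XIV and XVI sit on fibril surfaces, and types XV and XVIII are basement membrane zone proteoglycans. Macrophages are mainly known for taking up and degrading collagen.

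The series measured polyA RNA from mouse cells sorted as F4/80+ macrophages or as podoplanin-positive (PDPN+) stromal cells of the omentum, a fatty fold of the abdominal lining, in 30 libraries of 3 per group. The macrophage groups were an ex vivo group, a group kept alone in culture, a group given all-trans retinoic acid (ATRA, the active metabolite of vitamin A) at 1 uM, a group grown together with PDPN+ cells (co-culture), a group kept from PDPN+ cells by a transwell, and a group given 1 uM BMS493, which acts on retinoic acid receptors as an inverse agonist. PDPN+ cells formed 4 groups: alone, co-culture, transwell and BMS493. The sources used here give no genotype, strain, age, culture time or number of animals behind a library, nor the cell types that the BMS493 cultures contained. Replicates 1, 2 and 3 of every group each belong to 1 labelled batch, and that of replicate 3 is batch 340. The main tests did not use this pairing by batch, and a fit with the replicate as a block was an alternative. Whether replicates came from separate animals or cultures is not stated, so a p-value here reflects the spread among these libraries, which may be technical.

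Libraries held 29350158 to 54099085 counts. Levels are CPM, counts scaled to the library total after TMM scaling. The F4/80 gene Adgre1 was at 1789 CPM or more in every macrophage library and at 1.23 CPM or less in PDPN+ cells alone. It reached 38.5 to 62.5 CPM in PDPN+ cells from co-culture and 22.4 to 67.1 CPM in those with BMS493. The 24 fibroblast genes other than collagens summed to 10.8 to 94.3 CPM in macrophages cultured alone, 186 to 508 CPM in those from co-culture and 366 to 670 CPM in those with BMS493. In bulk RNA, fewer cells of a type and less RNA per cell cannot be told apart. In the replicate 1 co-culture pair, the source names carry each other's cell type, and the titles, which go with the Adgre1 levels, were used.

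Collagen chains took 0.67 to 5.23% of the counts in PDPN+ libraries and at most 0.104% in macrophage libraries. Of the 44 chains, 29 reached a group mean of 1 CPM in PDPN+ cells and 20 did so in macrophages. The cartilage chain Col9a1 and the transmembrane chain Col13a1 had no count in any library, and 15 chains stayed under 1 CPM in every group mean. Col14a1 was the single chain, among those with at least 1 CPM, whose highest group mean lay in a macrophage group, the one with ATRA. Of the 44 chains, 28 passed the filter on low counts in the macrophage fit and 36 in the PDPN+ fit. The filter favours genes that are high in some group, so the counts below describe only the chains that passed it.

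**Figure D1:**
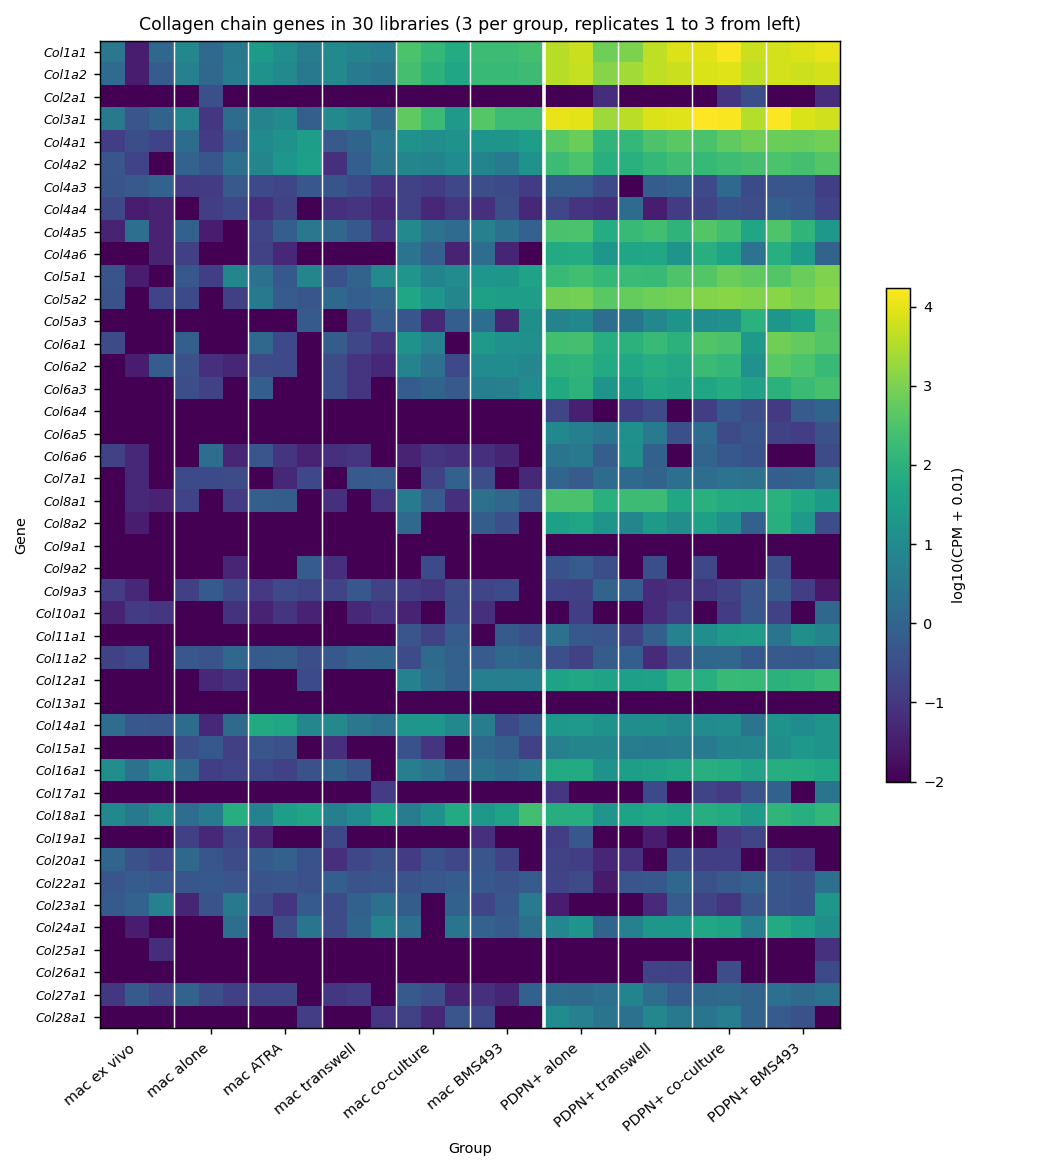
Level of each of the 44 collagen chain genes (rows) in the 30 libraries (columns, 3 per group), as log10(CPM + 0.01). The 12 PDPN+ libraries at the right hold most of the bright cells, and among macrophages the co-culture and BMS493 libraries show the fibrillar chains while the ATRA libraries show Col4a1, Col4a2 and Col14a1.

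Chains were compared with each other by the deposited size-factor-adjusted RPKM (a read count per gene length and library size), since longer genes collect more counts. In PDPN+ cells cultured alone, Col3a1, the single chain of fibrillar type III, made up 45.3 ± 6.2% of the summed RPKM of all chains (SD, n = 3). The type I chains followed, Col1a2 with 21.9 ± 3.1% and Col1a1 with 17.1 ± 4.4%. Col5a2, a chain of the fibril-seeding type V, held 4.4 ± 2.2% and Col4a1 2.1 ± 0.4%. The next 5 chains in this order were Col6a1, Col8a1, Col4a5, Col4a2 and Col5a1, at 1.7% to 1.0% each. Neighbours in this part of the order were close: Col6a1 held 1.7 ± 0.3% and Col8a1 1.6 ± 0.3%.

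Macrophages had another order of chains. Ex vivo, Col16a1, a fibril-associated chain, held 30.5 ± 8.1% of the summed chain RPKM and Col18a1, the core protein that releases endostatin, held 23.9 ± 3.7%. In culture alone, Col18a1 averaged 34.0%, with an SD of 34.2 and the highest value, 71.4%, in batch 340. With ATRA, Col14a1 held 26.3 ± 18.5%, Col18a1 17.5 ± 13.2%, Col4a2 13.7 ± 9.7% and Col4a1 12.4 ± 8.3%, values that overlap between libraries. In macrophages from co-culture the 3 chains that led in PDPN+ cells led as well, with Col3a1 at 29.3 ± 17.8%, Col1a1 at 25.2 ± 1.7% and Col1a2 at 21.3 ± 0.4%.

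PDPN+ cells cultured alone had higher levels of most fibroblast chains than macrophages cultured alone. In the edgeR quasi-likelihood fit over all 30 libraries, 22 of the 37 chains tested were called higher and 2 lower at an adjusted p under 0.05. Of all 20987 genes, 38.9% were called, 22.3% higher and 16.6% lower. Col5a2 was 434 to 888 CPM in the PDPN+ libraries and at most 0.243 CPM in the macrophage ones, a log2 fold change of 12.45 ± 1.16 (SE). Col3a1 differed by 11.48 ± 1.65 and Col8a1, a chain of a network collagen of vessel walls, by 11.25 ± 1.42 on the same log2 scale. Col12a1, a fibril-associated chain, differed by 10.03 ± 1.03, Col4a6 by 10.14 ± 2.09 and Col1a2 by 9.89 ± 1.10. Col8a2, the partner of Col8a1, had no count in macrophages cultured alone and was at least 1073-fold higher in PDPN+ cells, taking 3 counts over the group as the floor. By the same floor Col28a1 was at least 204-fold, Col6a5 at least 173-fold and Col5a3, the minor type V chain, at least 171-fold higher. The 2 chains called lower were Col23a1, a transmembrane collagen, at 0.0347, 0.391 and 3.37 CPM in the macrophages, and Col22a1, at 0.439 to 0.522 CPM. The macrophage level of Col22a1 is thus itself under 1 CPM, and its call was lost in 5 of the 6 fits that left out 1 library. That of Col23a1 (log2 fold change of -6.92) was lost in 3 of those 6, with values from -8.52 to -4.46. Without batch 340 it was -4.04 (edgeR adjusted p of 0.0879).

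The ATRA comparison was the one in which macrophages were given retinoic acid in libraries whose titles name no PDPN+ cells. Fibroblast transcripts were still found in both groups. The fibroblast list without collagens summed to 10.8 to 94.3 CPM alone and 13.7 to 121 CPM with ATRA. The single chain called was Col4a1, which with Col4a2 forms the common type IV molecule of basement membranes. It measured 1.63, 0.109 and 0.659 CPM in replicates 1 to 3 of the macrophages cultured alone and 9.01, 15.2 and 31.3 CPM in those with ATRA. The groups did not overlap, and the level was higher with ATRA in all 3 batches. The log2 fold change was 4.5 ± 0.81 (SE) with an adjusted p of 0.0265 by the edgeR test. Of all 17774 genes tested, 0.326% were called and 0.281% called higher. The call was lost when replicate 2 or 3 of either group was left out, with adjusted p of 0.0823 and 0.0837 without replicates 2 and 3 of the untreated group and of 0.0691 and 0.0507 without those of the ATRA group. The fold change stayed between 3.94 and 5.64 on the log2 scale in all 6 omissions.

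Another 3 chains were higher in every ATRA library than in any library of macrophages alone but did not pass the test. Col4a2 measured 0.902, 0.457 and 1.94 CPM alone and 6.79, 19.5 and 33.5 CPM with ATRA, with a log2 fold change of 4.15 ± 1.09 (SE) and an adjusted p of 0.16 in the edgeR fit. Col14a1, which binds the surface of fibrils, measured 1.60, 0.0435 and 1.43 CPM alone and 61.6, 49.5 and 7.95 CPM with ATRA. Its log2 fold change was 5.31 ± 1.29, with an adjusted p of 0.119 by edgeR, and it was lowest in batch 340, the batch in which both type IV chains were highest. Col5a2 stayed low, at no more than 0.243 CPM alone and between 0.464 and 3.30 CPM with ATRA (adjusted p of 0.292 in the edgeR fit). With the batch as a replicate block, Col4a1 and Col14a1 were called, with adjusted p of 0.0157 and 0.0315 in edgeR. DESeq2 called all 4. In all, 4 of 28 chains lay wholly higher with ATRA and 2 wholly lower, Col7a1 and Col22a1, both with group means under 1 CPM, where 5.04% of all genes lay wholly higher and 3.83% wholly lower.

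**Figure D2:**
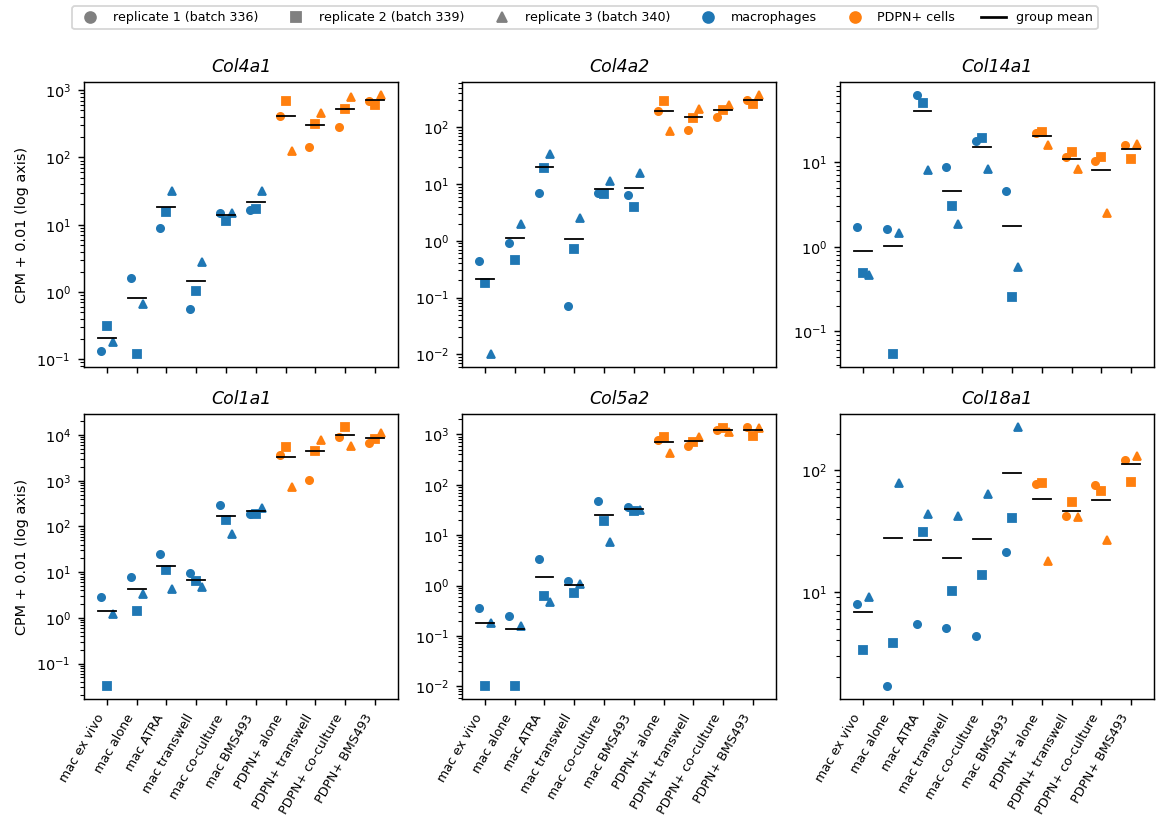
Level of 6 collagen chains in each library (points, CPM + 0.01 on a log axis) with the group mean as a black bar, by group and batch. Col4a1, Col4a2 and Col14a1 were higher with ATRA than in macrophages alone in all libraries, Col1a1 and Col5a2 were highest in the PDPN+ groups, and Col18a1 was highest in batch 340 in the macrophages alone, with ATRA, from co-culture and with BMS493.

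The type I and III chains overlapped between the groups with ATRA, and whether their response differed from that of the type IV chains was not tested. Col1a1 measured 7.80, 1.37 and 3.37 CPM in macrophages alone and 25.5, 11.4 and 4.33 CPM with ATRA, a higher level in 3 of 3 batches (3.27-, 8.33- and 1.28-fold). Col3a1 was 0.773 to 9.17 CPM with ATRA against 0.087 to 6.10 CPM alone. Over the 28 chains tested, the median log2 fold change was 0.61, with 18 of 28 above 0, and over all genes it was -0.01. The summed level of all chains was 142 to 152 CPM in the ATRA libraries and 13.3 to 107 CPM in macrophages alone. The fibroblast list without collagens summed to 13.7 to 121 CPM with ATRA, and 0 of its 22 tested members were called (edgeR, 3 at an unadjusted p under 0.05). Its median log2 fold change was also 0.61, with 17 of 22 above 0. The mesothelial list of 10 genes summed to 0.464 to 2.06 CPM with ATRA against 0.732 to 3.02 CPM alone, and Msln, its defining gene, was at 0 in both. Of its 7 tested genes, 2 had a log2 fold change above 0 (median -0.32). The pericyte and smooth muscle list of 10 genes summed to 9.46 to 24.2 CPM with ATRA against 8.83 to 12 CPM alone, with Rgs5 and Cspg4 at 0 in both. Of its 7 tested genes, 5 were above 0 (median 0.59) and 1 lay wholly higher, where 5.04% of all genes did. Whether cells of these types were present was not tested. Basement membranes are also made by endothelial cells, so that list was read too. Its 11 genes summed to 7.05 to 15.3 CPM with ATRA and 0.957 to 4.28 CPM alone, with Tek, Robo4, Tie1, Sox17 and Emcn at 0 counts in both. Pecam1, which macrophages can also express, averaged 7.79 ± 3.28 CPM of it with ATRA and 0.844 ± 0.636 CPM alone. Of the 5 endothelial genes tested, 2 lay wholly higher with ATRA, where 5.04% of all genes did. The median log2 fold change of the 5 was -0.85. None of the 4 lists held a called gene in this comparison (edgeR, 2 endothelial and 2 pericyte genes and 0 mesothelial genes at an unadjusted p under 0.05).

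Co-culture brought 4 chains past the test in macrophages, against the same untreated libraries as the ATRA comparison. Of all genes, 0.698% were called and 0.63% called higher. Col5a2 measured 47.9, 19.3 and 7.37 CPM in co-culture, against at most 0.243 CPM alone, with a log2 fold change of 7.62 ± 1.24 (SE) and an adjusted p of 0.0129 by edgeR. Col1a1 reached 293, 140 and 67.4 CPM (5.27 ± 1.07) and Col1a2 245, 104 and 48.5 CPM (5.25 ± 0.99). Col4a1 measured 15.1, 11.4 and 15.0 CPM, a log2 fold change of 4.08 ± 0.79. All 4 lay above every library of macrophages alone. Col3a1, at 512, 177 and 22.5 CPM, had a larger fold change, 6.47 ± 1.49 on the log2 scale, but more spread, and its adjusted p of 0.0628 in edgeR missed the threshold. It passed in edgeR with the replicate block (adjusted p of 0.0105), which called 6 chains with Col3a1 and Col14a1 added, with no filter on low counts (0.0379) and without batch 340 (0.0309), and also in DESeq2. The median log2 fold change over the 28 chains was 3.33, against -0.03 over all genes, and 12 of 28 chains lay wholly higher in co-culture and 0 wholly lower, where 8.28% and 5.81% of all genes did. Beside these, 4 of 22 fibroblast genes and 5 of 7 pericyte and smooth muscle genes were called higher, and the pericyte list summed to 100 to 357 CPM.

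These calls rested on few libraries. Without replicate 2 of the untreated group, the library with the least collagen, 0 chains were called, and without co-culture replicate 1 or 2, 1 chain was. Without replicate 1 or 3 of the untreated group 2 chains were called, and without co-culture replicate 3, 5 chains were. Without batch 340, 8 chains were called. Across the transwell 0 of 28 chains were called against macrophages alone (edgeR, 2 at an unadjusted p under 0.05, 0 by DESeq2), where 0.0281% of all genes were. Col1a1 measured 4.64 to 9.38 CPM there and Col4a1 0.554 to 2.82 CPM, both overlapping the untreated group. In all, 2 chains lay wholly higher across the transwell and 2 wholly lower, Col15a1 and Col27a1, where 5.85% and 5.02% of all genes did. Those higher were Col14a1, at 8.80, 3.0 and 1.86 CPM against at most 1.60 CPM alone, and Col5a2, at 1.20, 0.710 and 1.08 CPM against at most 0.243 CPM. Neither was called (edgeR adjusted p of 0.577 and 0.415). The fibroblast list without collagens summed to 20.4 to 152 CPM across the transwell, against 10.8 to 94.3 CPM alone. Of its 22 tested genes, 3 lay wholly higher and 1 wholly lower, where 5.85% and 5.02% of all genes did. The part of fibroblast transcripts in these chain values was not tested.

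**Figure D3:**
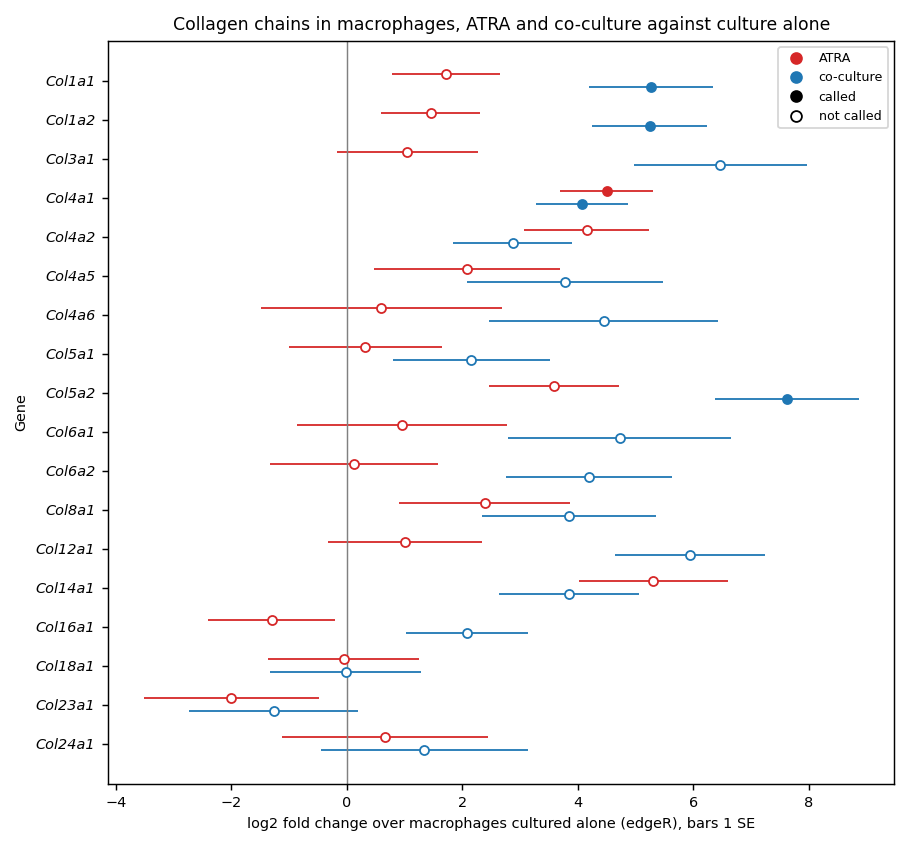
Log2 fold change (edgeR, bars 1 SE) of 18 collagen chains in macrophages with ATRA (red) and from co-culture (blue), each against macrophages cultured alone, for chains whose mean reached 1 CPM in 1 of these groups. Filled points passed the test; Col4a1 did so in both comparisons, Col1a1, Col1a2 and Col5a2 in co-culture.

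Direct comparisons of the co-culture macrophages with the transwell and ATRA macrophages called no chain. Against transwell the count was 0 of 28 in edgeR, where 0.0394% of all genes were called, with 13 chains at an unadjusted p under 0.05, 6 calls in DESeq2 and 3 (Col1a1, Col1a2 and Col5a2) with the replicate block. Against ATRA it was also 0, where 0.0563% of all genes were called, with 8 chains at an unadjusted p under 0.05, 5 calls in DESeq2 and 2 (Col1a2 and Col5a2) with the block. Col12a1, at 5.48, 1.75 and 0.881 CPM in co-culture, had no count in the transwell macrophages and was at least 77.3-fold higher. Its adjusted p by edgeR was 0.142.

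The level of each chain in co-culture macrophages was then set beside that in its partner cells. For each batch, the excess over macrophages alone was divided by the level in the PDPN+ library of the same co-culture. The same share over 19 fibroblast genes that are not collagens gave the reference, with medians of 3.65%, 1.42% and 0.963% in replicates 1, 2 and 3. Their mean shares ran from 0.138% for Prrx1, a mesenchymal transcription factor, to 5.24% for Dcn, the proteoglycan decorin. The 20 chains with at least 10 CPM in co-culture PDPN+ cells had medians of 3.59%, 1.17% and 1.13%. Of these 20 chains, 18 lay within the range of the fibroblast genes. That count does not separate the cultures, since 18 of 20 chains also lay within the transwell range. There the reference medians were 0.0511%, 0.0217% and 0.0174%, and the range ran from -3.60% to 7.08%. In co-culture the order of the batches was the same in chains and reference: both were highest in replicate 1.

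Among the main fibrillar chains, Col1a1 had shares of 3.20%, 0.937% and 1.13%, Col1a2 of 3.18%, 1.16% and 1.02%, and Col3a1 of 2.91%, 1.17% and 0.601%. Col5a2, the chain with the lowest adjusted p, had 3.89%, 1.42% and 0.648%, next to the reference in each batch. The type IV pair lay in the upper part of the range. Col4a1 had shares of 4.69%, 2.17% and 1.81% and Col4a2 of 3.87%, 3.07% and 3.69%. Both were above the level given by the batch median of the reference in 3 of 3 batches, as was Col16a1. For Col4a1 that level was 12.1, 7.48 and 8.28 CPM, against 15.1, 11.4 and 15.0 CPM observed. Col24a1, a minor fibrillar chain, was above the range through batch 340 alone (15.3%), where its PDPN+ partner held 5.12 CPM. Col18a1 was below it by its mean, with shares of 3.51%, 14.7% and -51.2% in replicates 1 to 3. The untreated macrophages of batch 340 held 77.8 CPM of it. Without replicate 3, Col18a1 was above the range.

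**Figure D4:**
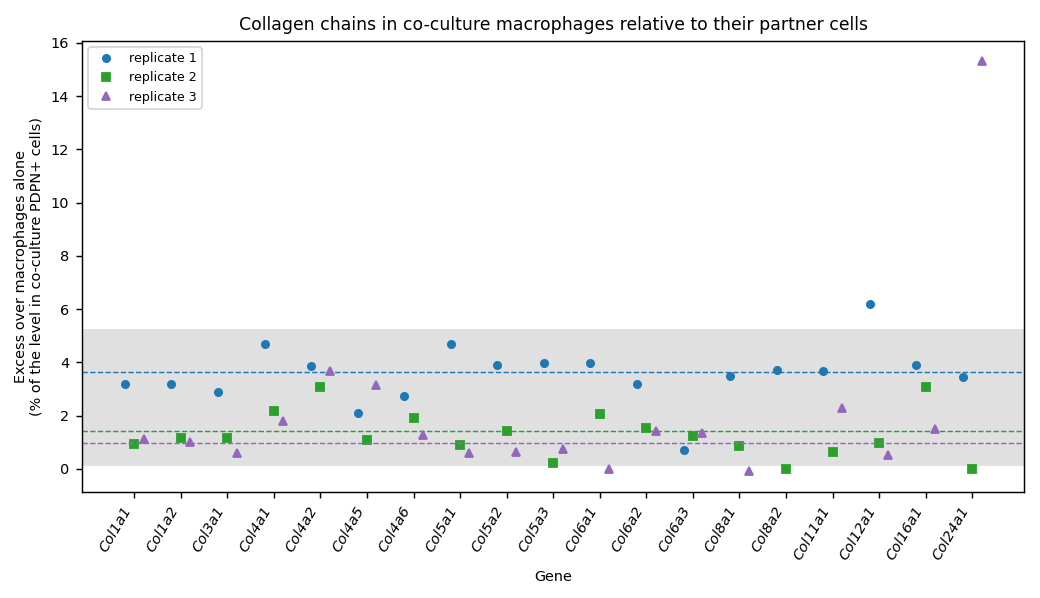
Excess of each collagen chain in co-culture macrophages over macrophages alone, as a percentage of its level in the PDPN+ cells of the same co-culture and batch (points). Dashed lines are the batch medians of 19 fibroblast genes and the grey band the range of their mean shares; Col18a1 (mean share -11.0%) is not drawn, and 18 of 20 chains had a mean share within the band.

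The same share for ATRA, taken against PDPN+ cells cultured alone in the same batch, was near 0 for the fibroblast genes, with medians of 0.0594%, 0.0553% and 0%. Col4a1 had 1.78%, 2.17% and 24.7% and Col4a2 3.07%, 6.45% and 36.1%. Both type IV chains were above the level given by the batch median in all 3 batches, as were Col1a1 and Col5a2 by smaller amounts. For Col1a1 that level was 9.97, 4.36 and 3.37 CPM, against 25.5, 11.4 and 4.33 CPM observed. Its shares were 0.485%, 0.186% and 0.132%. The mean shares of the fibroblast genes ran from -6.40% for Prrx1 to 0.319% for Dcn. The mean shares of Col1a1 and Col5a2 lay within that range, while both were above its upper end in replicate 1. The chains above that range were Col4a1, Col4a2, Col4a5, Col5a1, Col5a3 and Col24a1, and the last 4 of these measured under 1 CPM in at least 1 ATRA library. Col14a1 was outside this calculation, since PDPN+ cells from co-culture averaged 8.15 CPM of it. In co-culture it measured 17.7, 19.1 and 8.22 CPM in the macrophages and 10.4, 11.5 and 2.52 CPM in their PDPN+ partners, so the macrophage library was the higher of the pair in every batch.

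The 6 type IV genes stand in 3 head-to-head pairs, each gene transcribed away from its partner. In the GENCODE annotation of GRCm38, Col4a1 runs on the minus strand at chr8:11198423-11312826 and Col4a2 on the plus strand at chr8:11312805-11449287. Their starts overlap by 22 bases, at chr8:11312805-11312826. Col4a4 and Col4a3 on chromosome 1 lie 71 bases apart, and Col4a6 and Col4a5 on the X chromosome 1308 bases apart. The overlap of the Col4a1 and Col4a2 starts is shown because both genes were higher in every ATRA library and reads from it could belong to either gene. It is read from the RefSeq promoter table of GRCm38.p6 on both strands, with the GC box GGGCGG or its complement in capitals.
Col4a2 strand: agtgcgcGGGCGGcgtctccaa
Col4a1 strand: ttggagacgCCGCCCgcgcact

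The RefSeq table held a promoter, from 250 bases before to 50 after the start, for 35 of the 44 chains, Col4a1 and Col4a2 among them and Col14a1 not. Searched on both strands, GGGCGG occurred in 22 of the 35 (62.9%) and in 35.7% of all 32851 promoters. A chain was counted here if any of its promoters matched, while the share of all is per promoter. The paired percentages thus have unlike units. CCAAT occurred in 13 (37.1%) and in 37.4% of all, and in both Col4a1 and Col4a2. TATAAA was found in 5 chains (14.3%) and in 13.6% of all, and in neither of the pair. AGGTCA, a half-site of nuclear receptors, was in 8 chains (22.9%) and in 16.3% of all, again in neither, and AGTTCA in 3 (8.57%) and in 14.0% of all. Direct repeats of these half-sites spaced by 1, 2 or 5 bases were in 0 of the 35 chains, and in 0.0822%, 0.0396% and 0.0396% of all promoters. Repeats this rare in all promoters would seldom occur in any 35 chains, so their absence here says little. Sites outside this window or with other letters were not searched. A match is a description of these letters and not a binding site.

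The other type IV chains were not called with ATRA. Col4a3 and Col4a4, the chains of kidney glomerular basement membrane, stayed under 1 CPM in all 10 group means. Col4a5 averaged 218 ± 125 CPM in PDPN+ cells alone and Col4a6 51.9 ± 27.3 CPM (SD, n = 3). In macrophages Col4a5 averaged 1.31 ± 1.49 CPM with ATRA and 4.23 ± 3.95 CPM in co-culture, and Col4a6 0.0673 ± 0.0853 CPM with ATRA and 1.06 ± 1.18 CPM in co-culture. Neither was called in a comparison among macrophages.

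The balance of Col4a1 to Col4a2 was lower in the ATRA macrophages than in the co-culture, BMS493 and PDPN+ libraries. The common type IV molecule holds more Col4a1 than Col4a2 product. By deposited RPKM, the ratio of the 2 genes was 1.29, 0.764 and 0.911 in the ATRA libraries (0.990 ± 0.274). In co-culture macrophages it was 2.16, 1.65 and 1.31 (1.71 ± 0.42). In PDPN+ libraries it ran from 1.38 to 3.11, and in BMS493 macrophages from 2.02 to 4.12. The 3 ATRA libraries thus lay below the 18 others, by a narrow margin at the nearest values. Macrophages ex vivo, alone and across the transwell were left out, since 1 of the genes had 5 counts or fewer in a library of each. The ratio in macrophages alone, from 70 counts of Col4a1 and 100 of Col4a2 in all, was 1.76, 0.232 and 0.331, below the ATRA value in 2 of 3 batches. An exact two-sided permutation test of ATRA against co-culture gave p = 0.1, the smallest value that 3 against 3 libraries allow.

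**Figure D5:**
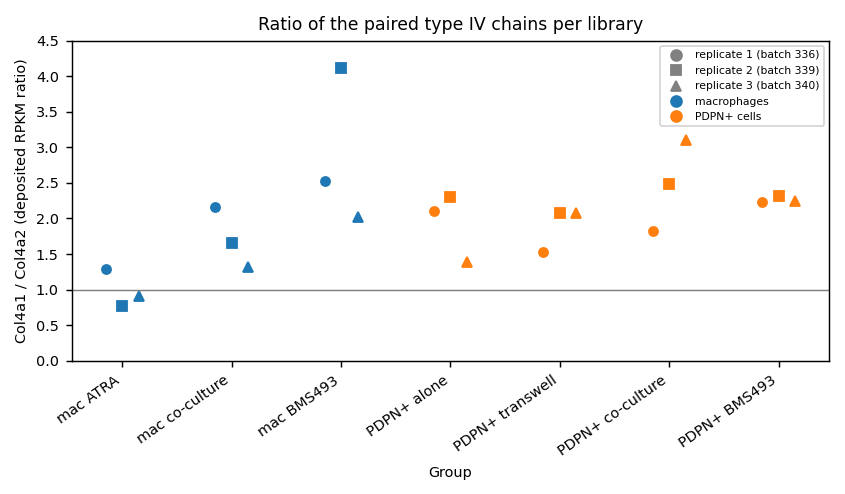
Ratio of Col4a1 to Col4a2 (deposited RPKM) in each library, by group and batch, for groups with at least 113 counts of either gene per library. The ATRA macrophages lie between 0.764 and 1.29 and the 18 other libraries between 1.31 and 4.12.

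The cultured macrophages were also set against those ex vivo, and 2 chains differed. Between macrophages ex vivo and in culture alone, 1 of 28 chains was called higher and 1 lower, where 17.8% of all genes were called, 9.31% higher and 8.5% lower. Col16a1 measured 11.6, 2.30 and 8.07 CPM ex vivo and 1.46, 0.130 and 0.183 CPM in culture, and fell by 3.61 ± 1.11 (SE) on the log2 scale (edgeR adjusted p of 0.035). Col15a1 had no count ex vivo and 0.312, 0.5 and 0.146 CPM in culture, at least 13.3-fold higher with the same floor (edgeR adjusted p of 0.0395). Its level in culture was still low. The pericyte and smooth muscle list summed to 1.82 to 2.17 CPM ex vivo and 8.83 to 12 CPM in culture, with 2 of 7 tested genes, Acta2 and Des, called higher. The fibroblast list without collagens summed to 2.06 to 10.9 CPM ex vivo and 10.8 to 94.3 CPM in culture, with 1 of 22, Fstl1, called higher and a median log2 fold change of 1.98. The part of these lists in the result was not tested. Without ex vivo replicate 1 or 3, neither chain was called. Col16a1 was not called without replicate 2 or 3 of the cultures, and Col15a1 not without replicate 1 or 2 of the cultures or ex vivo replicate 2. Col4a1 was called higher in culture without replicate 2 of the cultures, and also by DESeq2 with all libraries. It measured 0.125, 0.304 and 0.171 CPM ex vivo and 1.63, 0.109 and 0.659 CPM in culture, with overlap. Col4a3 was called lower without replicate 3 of the cultures. Without batch 340 Col15a1 alone was called.

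Col18a1 was highest in batch 340 in each group of cultured macrophages listed here. In macrophages alone it measured 1.66, 3.8 and 77.8 CPM, with ATRA 5.45, 31.2 and 43.8 CPM, in co-culture 4.34, 13.6 and 64.2 CPM and with BMS493 21.2, 40.3 and 225 CPM. With BMS493 it was higher than in co-culture in 3 of 3 batches (4.88-, 2.96- and 3.50-fold) and was not called. In a fit of batch 340 against the other batches over the 15 cultured macrophage libraries, added after the values were seen, its log2 difference was 2.92 ± 0.49 (SE, edgeR adjusted p of 0.00095). In that fit 9 of 28 chains were called, 6 higher and 3 lower, where 27.3% of all genes were, 15.2% higher and 12.1% lower. Col4a2, Col5a1, Col5a3, Col23a1 and Col24a1 were the other chains higher in batch 340, and Col4a6, Col6a2 and Col15a1 were lower. In the PDPN+ cells the same fit called 0 of 36 chains (edgeR, 12 at an unadjusted p under 0.05), where 0.047% of all genes were called. The log2 fold change of Col18a1 with ATRA was -0.05 ± 1.31 and turned to 2.69 without batch 340, and neither was called.

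BMS493 was set against co-culture, although the labels do not give the makeup of the BMS493 cultures. The pan-macrophage list summed to 1616 to 3762 CPM in PDPN+ libraries with BMS493, 1638 to 2386 CPM in those from co-culture and 85.8 to 139 CPM in those alone. The makeup itself was not tested. In macrophages 0 of 28 chains were called (edgeR, 2 at an unadjusted p under 0.05, 0 by DESeq2), where 0.85% of all genes were. Col14a1 measured 4.51, 0.247 and 0.560 CPM with BMS493 and 17.7, 19.1 and 8.22 CPM in co-culture, with no overlap and a lower level in 3 of 3 batches. Its log2 fold change was -3.08 ± 1.16 (SE) with an adjusted p of 0.389 in edgeR. Col4a1 was 16.6, 16.8 and 32.2 CPM with BMS493, a log2 difference of 0.64 ± 0.69. Col6a3, the longest chain of type VI, measured 4.88, 5.23 and 10.9 CPM with BMS493 and 0.663, 1.03 and 0.529 CPM in co-culture (3.22 ± 1.35, edgeR adjusted p of 0.490). Relative to the PDPN+ libraries with BMS493 of the same batch, the fibroblast genes had median shares of 3.48%, 3.30% and 3.28%. Their mean shares ran from -1.02% to 7.28%, and 19 of the 20 chains lay within that wide range. Col18a1 was above it.

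In PDPN+ cells no chain was called with co-culture, transwell or BMS493. For co-culture against alone the count was 0 of 36 in edgeR, with 10 chains at an unadjusted p under 0.05 and 2 calls in DESeq2 (Col5a1 and Col11a1), and 0% of all 19134 genes were called. Col11a1, a chain of a minor fibrillar type, measured 2.08, 0.5 and 0.421 CPM alone and 11.5, 24.5 and 26.8 CPM in co-culture, a log2 fold change of 4.41 ± 1.18 (SE, edgeR adjusted p of 0.334). Col5a1 measured 173, 227 and 145 CPM alone and 374, 687 and 501 CPM in co-culture (1.52 ± 0.42), and Col12a1 41.2, 56.2 and 39.6 CPM alone and 88.6, 173 and 153 CPM in co-culture (1.59 ± 0.47). In each of these the groups did not overlap. Col8a1 was lower in all 3 co-culture libraries, at 93.0, 69.4 and 66.0 CPM against 276, 286 and 93.1 CPM alone (-1.50 ± 0.60), and so was Col14a1, at 10.4, 11.5 and 2.52 CPM against 21.8, 22.5 and 16.1 CPM (-1.30 ± 0.47). In all, 10 of 36 chains lay wholly higher and 5 wholly lower, where 10.1% and 8.9% of all genes did, and the median log2 change was 0.32, against 0.00 over all genes. The pan-macrophage list summed to 1638 to 2386 CPM in these co-culture libraries and 85.8 to 139 CPM alone, and the mesothelial list to 38.4 to 1275 CPM against 1881 to 3271 CPM. Replicates 2 and 3 of the PDPN+ co-culture came from 3730 and 2148 cells, and its replicate 1 and each PDPN+ library cultured alone from 25000. The part of these lists and cell numbers in the chain values was not tested.

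Across the transwell 0 of 36 chains were called in PDPN+ cells (edgeR, 1 at an unadjusted p under 0.05, 0 by DESeq2), where 0% of all genes were. The pan-macrophage list summed to 107 to 595 CPM in these transwell libraries and 85.8 to 139 CPM alone. With BMS493 against co-culture 0 of 36 chains were called (edgeR, 4 at an unadjusted p under 0.05), where 0.0157% of all genes were, and DESeq2 called Col15a1. That chain measured 11.8, 21.7 and 16.9 CPM with BMS493 and 3.58, 6.61 and 6.88 CPM in co-culture, with no overlap and a log2 fold change of 1.55 ± 0.36 (SE, edgeR adjusted p of 0.434). Col6a3 was 103, 176 and 267 CPM with BMS493 against 49.6, 71.3 and 39.2 CPM (1.75 on the log2 scale).

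Whether the response to co-culture differed between the cell types was tested as a difference of the fold changes, in a fit over all 30 libraries added after the values were seen. Col5a2 alone of 37 chains was called, with a log2 difference of 6.84 ± 1.18 (SE, edgeR adjusted p of 0.00329), larger in macrophages. Of all genes, 0.986% were called and 0.481% called larger in macrophages. Macrophages alone held 7, 0 and 4 counts of Col5a2, so a small added amount gives a large log2 change there. Its excess in co-culture was 3.89%, 1.42% and 0.648% of the partner level, against 3.65%, 1.42% and 0.963% for fibroblast genes. The part of PDPN+ transcripts in this difference was not tested. Col4a1 and Col14a1 missed the threshold (edgeR adjusted p of 0.0702 each). The same difference called 0 chains for transwell (edgeR, 4 at an unadjusted p under 0.05), where 0% of all genes were called, and 0 for BMS493 against co-culture (1 at an unadjusted p under 0.05), where 0.00953% were.

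Chains need enzymes and chaperones for hydroxylation, folding, trimming and cross-linking, and 32 such genes were followed beside them. With ATRA, 0 of 28 tested were called in macrophages (edgeR, 5 at an unadjusted p under 0.05), 0 of 10 collagen receptors (4 unadjusted) and 0 of 13 basement membrane partners such as laminins and nidogens (1 unadjusted). In co-culture macrophages 4 of 28 biosynthesis genes, 1 of 10 receptors and 1 of 13 basement membrane partners were called higher against culture alone. None was called lower, and 0.63% of all genes were called higher. P4ha1 and P4ha2, prolyl hydroxylase subunits, rose 2.01-fold and 2.71-fold, from 186 to 387 CPM and from 24.2 to 67.6 CPM. Serpinh1, the collagen chaperone HSP47, rose 37.0-fold and Pcolce, an enhancer of procollagen trimming, 45.4-fold to 3.8 CPM. The receptor Ddr2 rose 98.5-fold to 6.51 CPM, and the matrix protein Sparc 41.4-fold to 186 CPM. PDPN+ cells alone held 2542 CPM of Serpinh1 and 6347 CPM of Sparc. The part of PDPN+ transcripts in these macrophage values was not tested.

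In culture against ex vivo, 1 of 28 biosynthesis genes was called higher and 4 lower, a share near the 17.8% of all genes called. P4hb, Ppib, P4ha2 and Plod3, enzymes of hydroxylation and folding, were lower in macrophages (3.16-, 3.25-, 2.60- and 2.81-fold). P3h3, a prolyl 3-hydroxylase family member, was higher, at 2.95 against 0.208 CPM. Of 10 receptors 0 were called higher and 1 lower, and of 13 basement membrane partners also 0 and 1. The integrin subunit Itgb1 was 2.94-fold lower and the basement membrane protein Nid2 was 40.3-fold lower, at 0.613 against 24.3 CPM. Between the cell types cultured alone, 22 of 31 biosynthesis genes were called higher in PDPN+ cells and 2, Plod1 and Plod3, lower, where 22.3% and 16.6% of all genes were. Pcolce (1994-fold), Loxl1 (1621-fold), Serpinh1 (1218-fold) and Fkbp10 (1172-fold) differed most among those with a count in macrophages. Among 11 receptors 6 were higher, led by Ddr2 (1922-fold) and Ddr1 (1220-fold), and Lair1, an inhibitory collagen receptor of leukocytes, was 565-fold lower. Among 18 basement membrane partners 15 were higher and 0 lower, with Sparc (1421-fold), Lamb1 (1380-fold) and Nid2 (1229-fold) leading those with a count in macrophages.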

How the data were processed

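GSNAP and GRCm38 are named as aligner and build in the submitters' processing notes. Each library's deposited table holds a count per gene model, of reads that aligned uniquely, and an RPKM adjusted by the authors with a size factor, both per the file headers. The sources used here do not give the strand setting, annotation or aligner version, so reads of overlapping genes cannot be separated. Coordinates are those of GENCODE for GRCm38. Of the identifiers, 192 had no symbol (0.0358% of counts). Testing used R 4.3.3 with the quasi-likelihood functions of edgeR 4.0.16 (limma 3.58.1), TMM scaling and the default low-count filter, with group as the factor, in 18 macrophage, 12 PDPN+ or all 30 libraries. P was adjusted by the Benjamini-Hochberg method over all genes, a gene was called under 0.05, and an SE is the log2 fold change over the root of F. The procedure was run on simulated counts with a fixed spread, no batch effect and changes only in well-counted genes. That run does not cover low-count chains or batch effects. DESeq2 1.42.0, other scalings, filters and omissions were alternatives. The replicate numbers pair libraries by labelled batch, and deviations of same-numbered libraries correlated with a median r of 0.349 in macrophages and 0.224 in PDPN+ cells. The main tests left this pairing out, and the replicate block was an alternative. Chains named are all those called with ATRA, up to 10 called chains of at least 1 CPM per direction elsewhere, the type IV chains and the 10 highest by RPKM in PDPN+ cells alone. Other chains were named after their values were seen. Partner genes named are up to 4 called per list and direction. Members and lists were chosen with earlier results of these data known. The batch and interaction fits were added after seeing the data. Floors and low counts cover counting error only.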

Additional observations from a re-analysis of the deposited data

Results flagged for a closer look

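Col5a2 was the single chain whose change with co-culture differed between the cell types by a test of the difference itself, added after the data were seen. In a fit over all 30 libraries, its log2 fold change in macrophages exceeded that in PDPN+ cells by 6.84 ± 1.18 (SE, edgeR adjusted p of 0.00329), and 0.986% of all 20987 genes were called in that contrast. It was higher in co-culture in all 3 libraries of both cell types, from at most 0.243 CPM to 7.37 to 47.9 CPM in macrophages and from 434 to 888 CPM to 1116 to 1357 CPM in PDPN+ cells. Its excess in macrophages over those alone was 3.89%, 1.42% and 0.648% of the level in the partner cells, against 3.65%, 1.42% and 0.963% for fibroblast genes. The part of PDPN+ transcripts in the called difference was not tested. The corresponding contrasts for transwell and BMS493 called 0 of 37 chains in edgeR (4 and 1 at an unadjusted p under 0.05).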

How the results depend on the processing

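Of 38 log2 fold changes followed, 37 kept their direction in every alternative. Col18a1 with ATRA reversed, to 1.09 with the replicate block, 2.69 without batch 340, 0.43 without ATRA replicate 1 and ran from -0.61 to 3.18 over the omissions of single libraries (3.18 without replicate 3 of the untreated group), and the cause was not tested. Chains called in macrophages moved most. For culture against ex vivo (2 in the report) DESeq2 called 8, 1 was called without batch 340 and 0 with only the 6 libraries compared, where fewer libraries estimate the spread. For ATRA (1) the numbers were 4 by DESeq2, 2 with the replicate block, 0 without batch 340 and 0 with only the 6 libraries. For co-culture against alone (4) they were 8 by DESeq2, 8 without batch 340 and 0 with only the 6 libraries. Co-culture against transwell (0) gave 6 by DESeq2 and 3 with the block. Co-culture against ATRA (0) gave 5 by DESeq2, 2 with the block and 1 without batch 340. In PDPN+ cells DESeq2 called 2 chains with co-culture and 1 with BMS493. Leaving out single libraries gave 0 to 2 chains for culture against ex vivo, 0 to 1 for ATRA, 0 to 5 for co-culture against alone, 23 to 24 between the cell types and 0 for the other comparisons. The block changed no other count by over 1.5 times. The causes of these moves were not tested further. The fibroblast share in co-culture macrophages (2.01%) was 2.94% against PDPN+ cells alone, 1.60% with mesothelial genes, 2.23% at a minimum of 50 CPM and 1.19% to 2.54% without 1 batch, with 16 to 19 of 20 chains in range and 14 of 15 at the 50 CPM minimum. A chain under 1 CPM rests on few counts.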
